A study of Mus musculus with 6 samples.

Results

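The heat shock chaperones examined here are 10 genes, namely Hspa1a, Hspa1b, Hspb1, Hsph1, Dnajb1, Hsp90aa1, Hspa8, Hsp90ab1, Hspd1 and Hspe1, out of 55401 genes counted in RNA-seq of the mouse dorsal hippocampus. They were chosen by name, each matched to 1 Ensembl identifier in GENCODE release M21, and divided from textbook knowledge into 6 stress-inducible members (Hspa1a, Hspa1b, Hspb1, Hsph1, Dnajb1 and Hsp90aa1) and 4 constitutive members (Hspa8, Hsp90ab1, Hspd1 and Hspe1). All 10 passed the filter on low counts. The samples were dorsal hippocampi of 3 WT mice given Control-ASO and 3 given Snhg11-ASO, an antisense oligonucleotide against the lncRNA Snhg11, whereas Control-ASO held the same bases in scrambled order. All mice were 4-month-old male littermates of the Ts65Dn colony, which is kept on a mixed B6EiC3 background. In both groups 50 μg of ASO was infused into the dorsal dentate gyrus of each hemisphere under ketamine and medetomidine, buprenorphine followed the surgery, and tissue was taken after 3 days. No uninjected hippocampus was analysed here, so the levels given for Control-ASO are those of operated tissue. The question addressed was whether the chaperones that stress induces differed between Snhg11-ASO and Control-ASO samples, and whether they behaved differently from those that cells express at rest.

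Heat shock proteins are chaperones that keep other proteins folded. In the textbook account, misfolded proteins draw chaperones away from the transcription factor HSF1, which then binds heat shock elements, inverted repeats of the unit GAA, in the promoters of the inducible genes. HSP70 proteins take up unfolded stretches with the help of J proteins such as Dnajb1 and of exchange factors such as Hsph1. HSP90 proteins mature kinases and steroid receptors, small heat shock proteins such as Hspb1 hold unfolded proteins without using ATP, and the Hspd1 and Hspe1 proteins form the folding chamber of mitochondria. Neurons are known to hold much Hspa8 and Hsp90 at rest and to raise inducible HSP70 less readily than glia.

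Counts on genes summed to between 28951250 and 43997537 read pairs per sample. Snhg11 was at 551, 436 and 209 CPM in Control-ASO replicates 1 to 3 and at 139, 65.4 and 69.4 in Snhg11-ASO replicates 1 to 3 (log2 fold change -2.13, SE 0.43, adjusted p = 0.395 by edgeR), without overlap. Values per sample are given in this order throughout, and SE is the standard error. CPM, counts scaled to a common library size, refer here to the reads on tested genes after TMM scaling. Snhg11-ASO replicate 1 stood apart. Its Spearman correlation with the other samples, taken across genes, was 0.955 to 0.959, against 0.979 to 0.991 between the other 5. The fold changes of the members it moves are therefore given with and without it. The 10 neuronal markers were all detected, with summed levels of 5550 to 6570 CPM.

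The heat shock elements near the start sites are shown first, because they are the feature by which inducible members are usually recognised. RefSeq windows of 300 bases on GRCm38.p6, from 250 bases before the start to 50 after, were found for 7 of the 10 members. Hspa8, Hsp90aa1 and Hsp90ab1 had none. The element was searched as 2 inverted units (GAANNTTC or TTCNNGAA, each its own reverse complement, matches allowed to overlap) and as 3 units (a 2-unit element followed, after any 2 bases, by another inverted unit). In the lines that follow the bases of the elements before the start are in capitals, each 5′ to 3′ on the strand of its gene.
Hspa1a (chr17:34972247-34972266, minus strand): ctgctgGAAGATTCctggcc
Hspa1b (chr17:34959329-34959348, minus strand): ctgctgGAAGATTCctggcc
Hspb1 (chr5:135887796-135887835, plus strand): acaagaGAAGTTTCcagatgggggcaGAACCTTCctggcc
Hsph1 (chr5:149636356-149636375, minus strand): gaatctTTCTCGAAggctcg
Hspd1 (chr1:55088053-55088082, minus strand): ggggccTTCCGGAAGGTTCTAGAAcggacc
Hspe1 (chr1:55088053-55088082, plus strand): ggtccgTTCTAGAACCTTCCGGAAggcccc

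A 2-unit element was found in 6 of the 7 members with a window, and a 3-unit element in 3. Of all 32851 windows of this length, 15.1% held a 2-unit and 0.603% a 3-unit element. Neither window of Dnajb1 held one of these letter strings. The windows of Hspa1a and Hspa1b were identical at 296 of 300 positions (98.7%), the element included. The first annotated start of Hspd1 and that of Hspe1 lie 215 bases apart and face away from each other. The second start of Hspd1 lies past that of Hspe1, so that the transcripts overlap, and its window held no element. The 18 bases in capitals for Hspe1 and for the first Hspd1 window each hold 2 overlapping 3-unit matches. They are the same stretch of DNA read from opposite strands. The 3-unit element of Hsph1 lay after its start. In these windows the 3-unit element was thus in 1 of 5 inducible and 2 of 2 constitutive members. The 2 constitutive ones, Hspd1 and Hspe1, share the same stretch and are by textbook knowledge also mildly inducible. Hspa8 and Hsp90ab1 had no window, so whether the classes differ in this motif could not be seen. A match of letters describes the window and shows no binding.

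**Figure D1:**
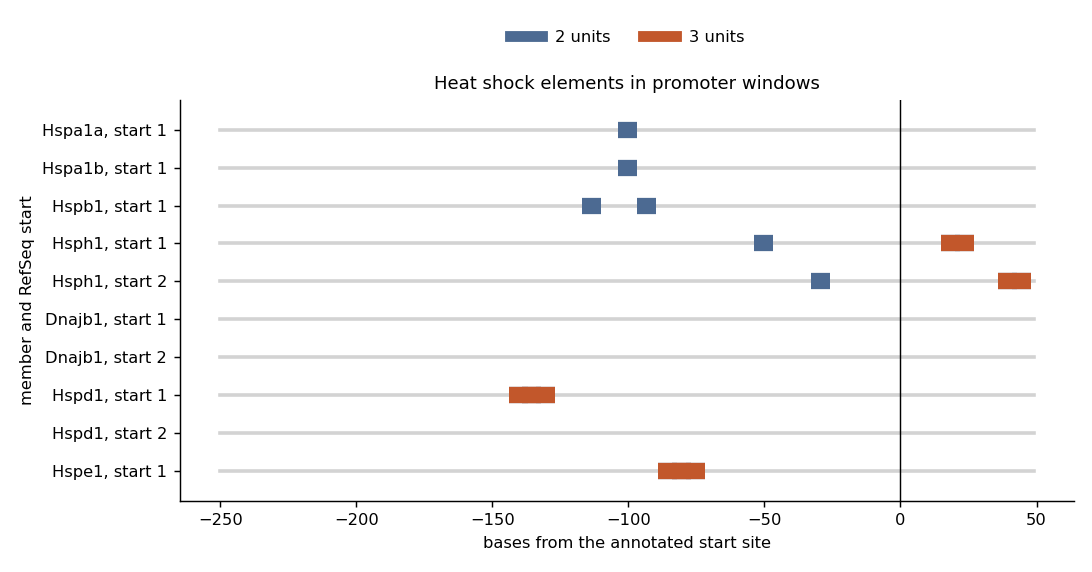
Positions of heat shock elements in the RefSeq promoter windows of 7 members. The x axis gives bases from the annotated start site, each grey line is 1 window, blue blocks are 2-unit and orange blocks 3-unit elements; members with more than 1 start have a line for each. Hspa1a and Hspa1b carry their element at the same distance, and the only elements after a start are those of Hsph1.

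Several members share long stretches of sequence with other genes, which limits how they can be counted, since the aligner leaves out read pairs that fit several places. The share of distinct 50-base words (the read length) that also occur in transcripts of another gene was computed for each member. It was 66.3% for Hspa1a and 62.3% for Hspa1b, which share most of these words with each other. It was 50.1% for Hspb1 (mostly with the pseudogene Hsp25-ps1), 47.5% for Hsp90aa1, 42.1% for Hspd1, 39.4% for Hspa8 and 22.8% for Hspe1. Hsp90ab1 (3.44%), Dnajb1 (0.412%) and Hsph1 (0) were nearly free of such words. How far this lowers the counts of the first 7 was not measured. Hspa1a also overlaps the gene Gm20481 on the opposite strand, so that it had 68 to 182 counts per sample with strand taken into account and 35 to 82 without.

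The members covered a wide range of levels. Per kilobase of exon, Hsp90ab1, the constitutive cytosolic HSP90, was highest, with a mean of 389 ± 17.9 CPM per kb (SD, n = 6 samples). Hspa8, the constitutive cytosolic HSP70, followed at 137 ± 28.2 and Hsp90aa1, the inducible HSP90, at 131 ± 15.3, with overlapping ranges. Hspd1 was at 32.5 ± 2.39, Hsph1 at 21.6 ± 2.15 and Hspe1 at 18.6 ± 2.69 CPM per kb, the ranges of Hsph1 and Hspe1 overlapping. Dnajb1 was at 8.12 ± 0.868 CPM per kb. Hspb1 had a mean of 7.67 ± 13.5 because 1 sample reached 35.3, while the lowest was at 1.33. Hspa1b (1.06 ± 0.565) and Hspa1a (0.948 ± 0.367) were lowest, and their ranges overlapped each other. Dnajb1 overlapped Hspb1, and Hspb1 overlapped Hspa1b. Of the 6 members classed as inducible, Hsp90aa1 thus had a level like that of Hspa8, and the label does not describe its level in this tissue. Hspa8, Hsp90aa1 and Hsp90ab1 together made up 86.4% to 89.3% of the CPM of the 10 members.

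**Figure D2:**
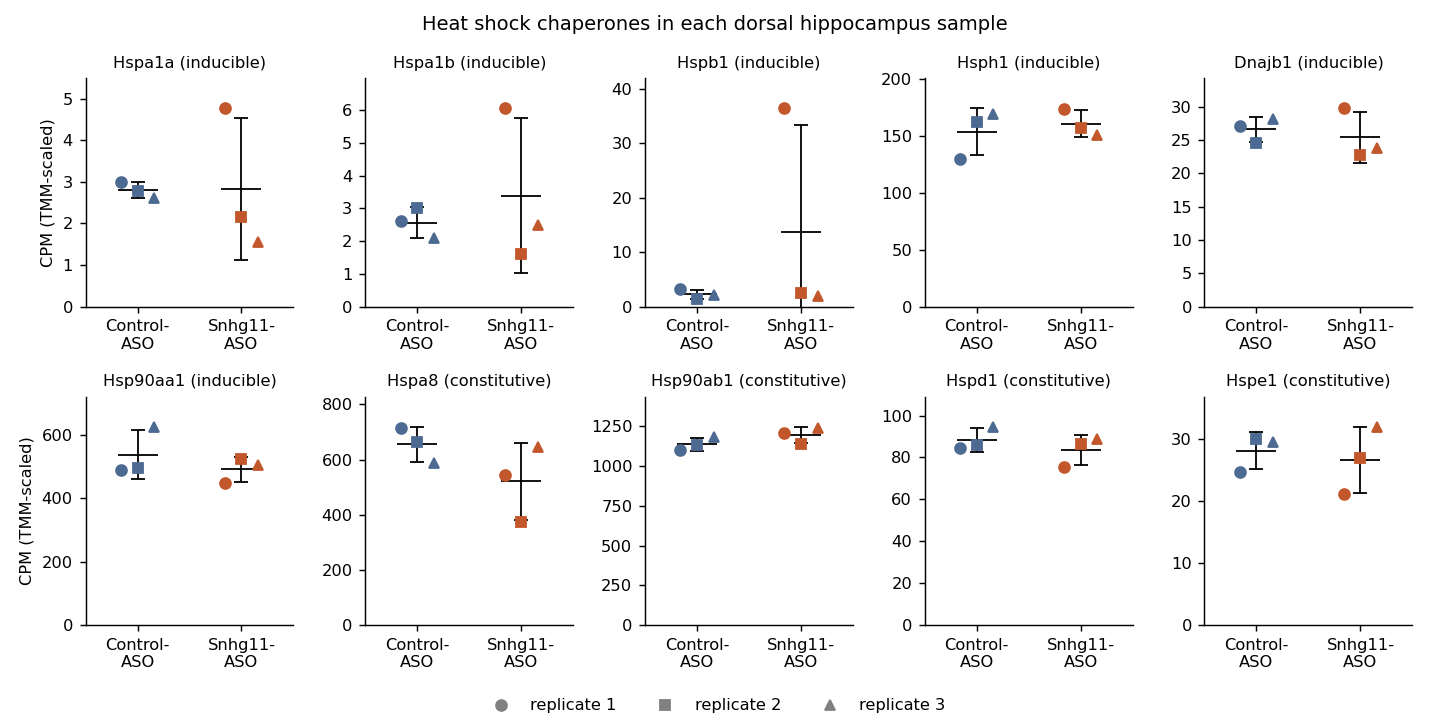
Level of each member in each sample. The y axes give TMM-scaled CPM from 0 and differ between panels, points are samples with a symbol for each replicate number, horizontal lines are group means and bars are 1 SD (n = 3 per group), the lower bar of Hspb1 being cut off at 0. Snhg11-ASO replicate 1 is the highest sample for Hspa1a, Hspa1b, Hspb1, Hsph1 and Dnajb1, and the groups overlap in all 10 panels.

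No member was shown to differ between Snhg11-ASO and Control-ASO beyond the spread between samples. By the quasi-likelihood test of edgeR, with p adjusted after Benjamini-Hochberg over 19969 genes, 0 of the 10 members had an adjusted p under 0.05, as did 0 genes in all (percent called 0%), and the smallest adjusted p among members was 0.618. With p left unadjusted, 0 of 10 members were under 0.05, against 1619 genes or 8.11% of all genes tested. DESeq2 called 0 members, against 258 or 1.44% of the 17966 genes to which it gave an adjusted p. Hspb1 was given none. The 2 groups overlapped for all 10 members, whereas they did not overlap for 15.4% of all genes tested. With 3 mice against 3 the exact permutation test cannot go below p = 0.1. Log2 fold changes ran from -0.33 for Hspa8 to 2.62 for Hspb1, with a median of -0.03, and the median over all genes tested was 0.010. In bulk tissue, fewer cells of a type and less RNA per cell cannot be told apart.

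The inducible HSP70 genes, Hspa1a and Hspa1b, lie close together on chromosome 17 of GRCm38, each as a single exon on the minus strand (Hspa1a, 34969190 to 34972156, and Hspa1b, 34956436 to 34959238). Hspa1a was at 2.99, 2.79 and 2.61 CPM in Control-ASO replicates 1 to 3 and at 4.77, 2.15 and 1.56 in Snhg11-ASO replicates 1 to 3. The Control-ASO samples lay close together, and the Snhg11-ASO samples lay on both sides of them. Its log2 fold change was 0.01 (SE 0.42, adjusted p = 0.996 by edgeR). Without Snhg11-ASO replicate 1 it was -0.59 (SE 0.22, unadjusted p = 0.0337, adjusted p = 0.470 by edgeR), with both remaining Snhg11-ASO samples below all Control-ASO samples. In that comparison of 2 against 3, 13.5% of all genes did not overlap in this direction.

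Hspa1b was at 2.62, 3.00 and 2.08 CPM after Control-ASO and at 6.06, 1.60 and 2.50 after Snhg11-ASO. Again replicate 1 was the highest of the Snhg11-ASO samples, and the other 2 lay within or below the range of the controls. The log2 fold change was 0.40 (SE 0.49, adjusted p = 0.848 by edgeR) and -0.32 without that replicate. Behind these values stood 67 to 231 counts per sample for Hspa1b and 68 to 182 for Hspa1a. The counts of both were also summed. Reads that fit both copies are not counted for either gene, so the sum lacks them too. The sum was 5.61, 5.80 and 4.69 CPM after Control-ASO and 10.8, 3.76 and 4.05 after Snhg11-ASO, a log2 fold change of 0.21 (SE 0.42, adjusted p = 0.910 by edgeR). Without replicate 1 the sum gave -0.46 (SE 0.17, unadjusted p = 0.0309, adjusted p = 0.469), with both remaining Snhg11-ASO samples below all controls. Hspa1a made up 38.4% of the pair in Snhg11-ASO replicate 3 and 44.1% to 57.3% in the other samples.

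Hspb1, the small heat shock protein HSP25 of the mouse, set 1 library apart from all others. It lies on the plus strand of chromosome 5, from 135887919 to 135889563. It had 92, 46 and 72 counts after Control-ASO and 1387, 103 and 87 after Snhg11-ASO, or 3.13, 1.37 and 2.14 against 36.4, 2.46 and 1.99 CPM. Snhg11-ASO replicate 1 was 16.4 times the mean of the other 5 samples, while Snhg11-ASO replicates 2 and 3 lay within the range of the controls. Ranked by this ratio over the 19969 genes tested, Hspb1 was number 34, and 78 genes stood at least 10 times higher in that library. The log2 fold change was 2.62 (SE 1.14, unadjusted p = 0.0556, adjusted p = 0.618 by edgeR), and DESeq2 gave it no adjusted p. Without Snhg11-ASO replicate 1 it was 0.02 (SE 0.35, adjusted p = 0.994 by edgeR). The pseudogene Hsp25-ps1 had 0 to 7 counts per sample, and with its counts added the log2 fold change was 2.63.

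The other 3 inducible members were expressed more highly and varied less. Hsph1, an HSP110-type exchange factor for HSP70 (chromosome 5, 149614287 to 149636376, minus strand), was at 130, 162 and 169 CPM after Control-ASO and 174, 157 and 151 after Snhg11-ASO. The highest Snhg11-ASO sample exceeded the highest control only slightly, and the lowest of all samples was Control-ASO replicate 1. Its log2 fold change was 0.06 (SE 0.12, adjusted p = 0.907 by edgeR). Dnajb1, the J protein that loads clients onto HSP70 (chromosome 8, 83608193 to 83612653, plus strand), was at 27.1, 24.5 and 28.2 CPM after Control-ASO and 29.8, 22.7 and 23.8 after Snhg11-ASO. As for Hspa1a, replicate 1 was above and replicates 2 and 3 were below all controls. The log2 fold change was -0.07 (SE 0.14, adjusted p = 0.914 by edgeR) and -0.20 (SE 0.09, adjusted p = 0.547) without replicate 1. Hsp90aa1 (chromosome 12, 110690605 to 110702728, minus strand) was at 491, 495 and 627 CPM after Control-ASO and 449, 524 and 505 after Snhg11-ASO. Here Snhg11-ASO replicate 1 was the lowest of the 6 samples, not the highest, and the log2 fold change was -0.12 (SE 0.13, adjusted p = 0.830 by edgeR).

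**Figure D3:**
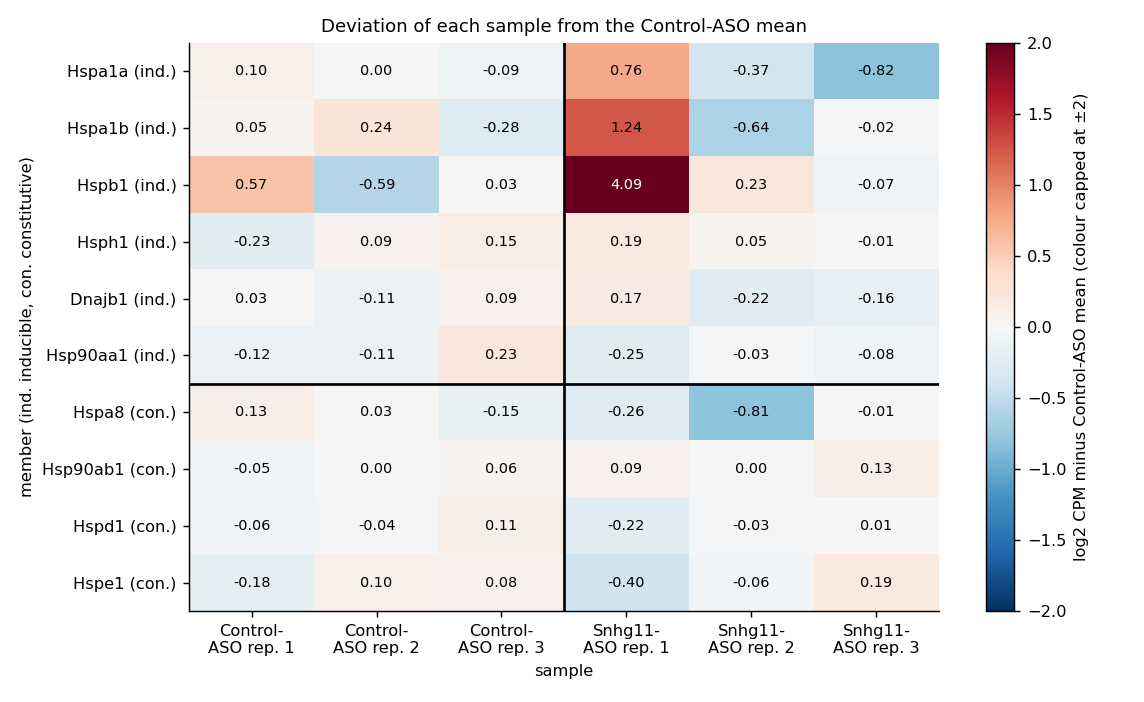
Deviation of each sample from the Control-ASO mean, as log2 CPM with a prior count of 2. Rows are members, columns are samples, the lines separate the classes and the groups, and the colour scale is capped at ±2. Snhg11-ASO replicate 1 deviates by 4.09 for Hspb1, 1.24 for Hspa1b and 0.76 for Hspa1a, and the largest deviation downward is that of Hspa1a in Snhg11-ASO replicate 3 (-0.82).

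Among the constitutive members, Hspa8 had the lowest fold change of all 10 with all samples in the fit, though not without Snhg11-ASO replicate 1 or 2, where Hspa1a (-0.59) or Hsp90aa1 (-0.17) was lower. It is the HSC70 protein that uncoats clathrin vesicles and folds newly made proteins, and its gene lies on the plus strand of chromosome 9, from 40800984 to 40810087, with snoRNA genes (Snord14c, Snord14d and Snord14e) on the same strand. Hspa8 was at 714, 665 and 588 CPM after Control-ASO and at 545, 372 and 646 after Snhg11-ASO. The value of Snhg11-ASO replicate 2 was well below the other 5, and the groups overlapped. The log2 fold change was -0.33 (SE 0.20, adjusted p = 0.710 by edgeR, exact permutation test p = 0.2). It was -0.14 without Snhg11-ASO replicate 2 and -0.52 without replicate 3.

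The processed pseudogene Gm15459, on the minus strand of chromosome 5 from 5781615 to 5783555, holds 34.6% of the 50-base words of Hspa8. It was counted 122, 139 and 3401 times in Control-ASO replicates 1 to 3 and 118, 6759 and 160 times in Snhg11-ASO replicates 1 to 3. Its 2 high samples, Control-ASO replicate 3 and Snhg11-ASO replicate 2, were also the lowest of their groups for Hspa8. Gm15459 made up 14.7% of the sum of both genes in the first, 30.3% in the second and 0.564% to 0.617% in the other 4. With both genes summed, the level was 718, 669 and 689 CPM after Control-ASO and 548, 534 and 650 after Snhg11-ASO. On this scale Snhg11-ASO replicate 2 no longer stood apart from replicate 1, and the highest Snhg11-ASO sample lay below the lowest control. The log2 fold change of the sum was -0.26 (SE 0.11, adjusted p = 0.615 by edgeR, exact permutation test p = 0.1, the smallest possible). With 1 library left out it ran from -0.36 to -0.21. This sum was formed after the values were seen. Whether the reads on Gm15459 came from Hspa8 was not tested.

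Hsp90ab1 (chromosome 17, 45567775 to 45573271, minus strand) had the smallest spread relative to its level. It was at 1100, 1130 and 1180 CPM after Control-ASO and 1210, 1140 and 1240 after Snhg11-ASO, so that the groups overlapped by a narrow margin, and its log2 fold change was 0.07 (SE 0.10, adjusted p = 0.868 by edgeR). The ratio of Hsp90aa1 to Hsp90ab1, both per kb, was 0.333 to 0.404 in Control-ASO and 0.283 to 0.352 in Snhg11-ASO, with the lowest value in Snhg11-ASO replicate 1. Hspd1, the mitochondrial HSP60 (chromosome 1, 55077835 to 55088243, minus strand), was at 84.3, 85.8 and 94.7 CPM after Control-ASO and 75.4, 86.2 and 88.8 after Snhg11-ASO. Its log2 fold change was -0.08 (SE 0.10, adjusted p = 0.847 by edgeR). Hspe1, the lid of the same chamber (chromosome 1, 55088132 to 55091307, plus strand), was at 24.7, 30.1 and 29.6 CPM after Control-ASO and 21.2, 26.9 and 31.9 after Snhg11-ASO. Its log2 fold change was -0.08 (SE 0.17, adjusted p = 0.922 by edgeR). Both were lowest in Snhg11-ASO replicate 1, the sample in which Hspa1a, Hspa1b and Hspb1 were highest. Across the 6 samples the log2 CPM of Hspd1 and Hspe1 had a Pearson r of 0.85, and of 0.53 without Snhg11-ASO replicate 1, given as a description of libraries that share depth and scaling.

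**Figure D4:**
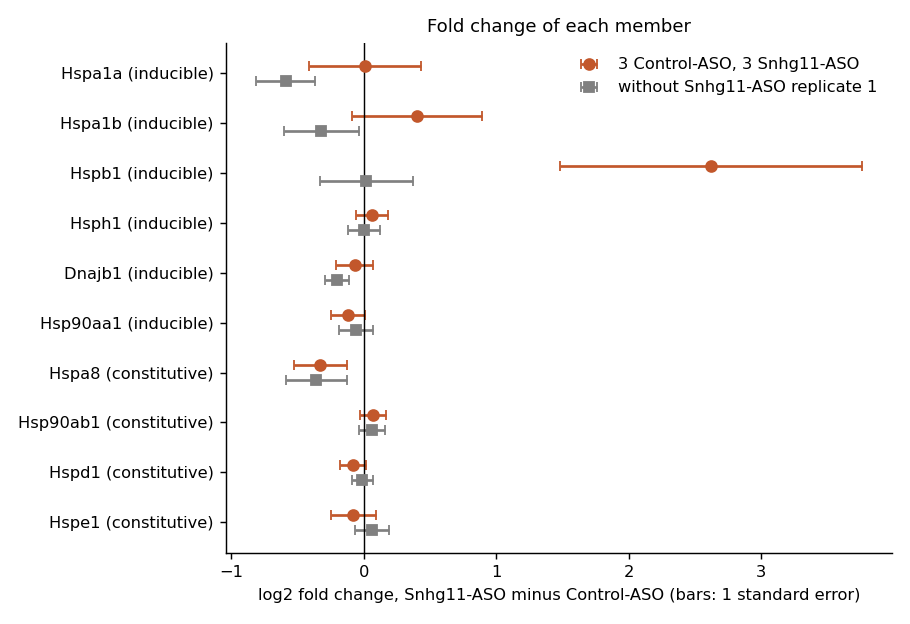
Log2 fold change of each member, Snhg11-ASO minus Control-ASO, with bars of 1 standard error. Circles use all 6 samples and squares leave out Snhg11-ASO replicate 1. The value of Hspb1 goes from 2.62 to 0.02 when that library is left out, and those of Hspa1a and Hspa1b turn from above to below 0.

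The classes were then set against each other. The median log2 fold change was 0.04 over the 6 inducible members, of which 4 were higher in Snhg11-ASO, and -0.08 over the 4 constitutive members, of which 1 was higher. Without Snhg11-ASO replicate 1 the medians were -0.13, with 2 of 6 higher, and 0.02, with 2 of 4 higher. The inducible median minus the constitutive median was 0.12 with all samples, and -0.15, 0.22 and 0.38 without Snhg11-ASO replicates 1, 2 and 3, so that its sign depended on replicate 1. In each sample the mean log2 CPM of the constitutive members was subtracted from that of the inducible ones. This difference was -3.42, -3.63 and -3.52 after Control-ASO and -2.29, -3.46 and -3.79 after Snhg11-ASO. Replicate 1 lay far above all controls, replicate 2 within their range and replicate 3 below it. Without Hspb1 the difference in replicate 1 was still the highest, at -2.29, against -2.90, -2.91 and -2.91 after Control-ASO and -2.93 and -3.21 in replicates 2 and 3 of Snhg11-ASO. No p is given, since the members were chosen with results known.

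Some other values also set apart Snhg11-ASO replicate 1, the library in which Hspb1, Hspa1b and Hspa1a were clearly highest. The 13 immediate early genes summed to 711 CPM there, with 9 of 13 highest in this library, against 244 to 330 in Control-ASO and 353 and 422 in the other Snhg11-ASO samples. The 10 leukocyte markers, of which 6 could be tested, summed to 65.1 CPM against 19.4 to 28.7 elsewhere, with 6 of 10 highest in this library. Microglial markers were lowest there, at 242 CPM against 331 to 758, with 7 of 10 lowest in this library. Astrocyte markers, at 4280 against 4920 to 7230, and neuronal markers, at 5550 against 5890 to 6570, were also lowest there, with 7 of 10 and 5 of 10 lowest. Of the oligodendrocyte markers 8 of 10 were lowest there, although their sum, at 1710 against 1690 to 3840 CPM, was not. The 10 endothelial markers summed to 231 CPM there and to 191 to 229 in the other samples, but 5 were highest and 5 lowest in this library. The 10 mural cell markers summed to 178 against 164 to 214, with 6 highest and 3 lowest there. Choroid plexus markers ranged from 194 to 2930 CPM over all samples, with 2090 in this library, which lay inside the range of the controls. The remaining lists, in that library and then in the other 5, summed to 573 against 425 to 540 CPM for granule cells, 679 against 636 to 847 for pyramidal cells and 58.5 against 41.9 to 99.7 for red blood cells. In that library 3 of 10 granule cell markers were highest and 4 lowest, and 3 of 10 pyramidal cell markers were highest and 1 lowest. No marker in these lists was at 0 in all samples. The part of these differences in the chaperone values was not tested.

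The genes most like the mean of the inducible members over the 6 samples, by Pearson r of log2 CPM among 19959 other genes, were Cpsf7 (0.999), Gm43805 (0.999), Irak3 (0.998), Rnf223 (0.998) and Slc22a21 (0.997). An r over 0.95 was reached by 717 genes, so the likeness is not particular to these 5. Irak3, for example, was at 1.60, 1.19 and 1.34 CPM after Control-ASO and 13.2, 1.05 and 1.01 after Snhg11-ASO. Cpsf7 was at 63.8, 60.7 and 62.5 against 86.1, 59.4 and 59.3 CPM. In all 5 the pattern was that of a single high library, Snhg11-ASO replicate 1.

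Of 96 further genes of the chaperone network, 92 could be tested and 0 had an adjusted p under 0.05 in edgeR. At an unadjusted p under 0.05 there were 10 higher and 3 lower genes, where the background is 3.68% and 4.43% of all genes tested. The groups did not overlap for 18 genes that were higher and 4 that were lower, against 7.73% and 7.70% of all genes tested. The median log2 fold change was 0.06. Without Snhg11-ASO replicate 1 the counts at an unadjusted p under 0.05 were 5 higher and 2 lower, against 4.41% and 5.54% of all genes, and 24 higher and 4 lower did not overlap, against 14.7% and 13.5%. The 4 genes not tested were Hspb2, Hspb7, Hspb9 and Cryaa.

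The heat shock factors and their regulators, 6 genes, had a median of -0.06, and none reached an unadjusted p under 0.05. Hsf1 itself, named here after its values were seen, was at 29.1, 22.9 and 22.7 CPM after Control-ASO and 27.4, 23.7 and 21.3 after Snhg11-ASO. Hsf2, the factor with the smallest p, was at 31.6, 29.8 and 36.2 against 43.1, 33.2 and 35.0 CPM, with overlapping groups. Among 11 relatives of HSP70 the lowest p was that of Hspa4l, an exchange factor close to Hsph1. Hspa4l was at 191, 182 and 242 CPM after Control-ASO and 143, 169 and 158 after Snhg11-ASO, a log2 fold change of -0.39 (SE 0.13, adjusted p = 0.551 by edgeR), without overlap. Among 18 J proteins it was Dnajb5, at 63.7, 62.3 and 56.2 against 94.8, 80.8 and 72.1 CPM, a log2 fold change of 0.44 (SE 0.12, adjusted p = 0.497), also without overlap.

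Of 13 co-chaperones of HSP70, Hspbp1, which releases nucleotide from HSP70, was at 26.3, 27.1 and 22.1 CPM after Control-ASO and 18.8, 18.0 and 15.3 after Snhg11-ASO. All Snhg11-ASO samples were below all controls, and the log2 fold change was -0.53 (SE 0.14, unadjusted p = 0.00580, adjusted p = 0.483 by edgeR). Without replicate 1 the log2 fold change was -0.59. DESeq2 gave Hspbp1 an adjusted p of 0.0515 with all samples and of 0.0131 without replicate 1. Bag3, a partner of HSP70 and a known HSF1 target, was named after its values were seen. It was at 3.37, 4.46 and 3.03 against 15.1, 4.74 and 5.50 CPM. Replicate 1 was far above the rest, and replicates 2 and 3 were also above all controls. The log2 fold change of Bag3 was 1.22, and 0.50 without replicate 1. The 15 relatives and co-chaperones of HSP90 had a median of -0.05. Their lowest p was that of Fkbp5, an HSP90-bound immunophilin of the steroid receptor complex, at 43.4, 38.9 and 40.9 against 138, 45.9 and 43.4 CPM, with a log2 fold change of 0.88 that fell to 0.12 without replicate 1. The 14 TRiC and prefoldin genes, which fold actin and tubulin, had a median of 0.05. Cct3 had the smallest p there, at 82.2, 84.1 and 86.4 against 98.1, 90.3 and 93.4 CPM (log2 fold change 0.16, SE 0.08, adjusted p = 0.661 by edgeR).

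The small heat shock proteins and a list of other heat-inducible genes leaned upward. Of 5 small heat shock proteins tested, 4 were higher, with a median log2 fold change of 0.65, and of 0.48 without Snhg11-ASO replicate 1. Hspb3 had the smallest p, but at 0.306, 0.357 and 0.237 CPM after Control-ASO and 0.577, 0.885 and 1.33 after Snhg11-ASO it was barely expressed (log2 fold change 1.63, SE 0.41, adjusted p = 0.475 by edgeR). Cryab, named after its values were seen, was at 23.8, 31.7 and 27.7 against 69.6, 34.5 and 42.7 CPM. Like Hspb1 it was highest in replicate 1, at 2.17 times the mean of the other 5 samples, but unlike Hspb1 it was also above all controls in replicates 2 and 3.

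Of the 10 other heat-inducible genes, 10 had a positive log2 fold change, with a median of 0.77 and of 0.28 without Snhg11-ASO replicate 1. At an unadjusted p under 0.05 by edgeR 6 were higher, against 3.68% of all genes tested. The groups did not overlap for 7, all higher, against 7.73% of all genes tested. Several of the 10 genes also answer to metals, oxidants or injury, so that the list is not one of chaperones. Mt2, a metallothionein that binds zinc, was at 44.1, 69.5 and 66.4 CPM after Control-ASO and 335, 90.1 and 106 after Snhg11-ASO (log2 fold change 1.56, SE 0.51, adjusted p = 0.544 by edgeR). Without replicate 1 its log2 fold change was 0.70. DESeq2 gave Mt2 an adjusted p of 0.0547 with all samples, and of 0.0380, 0.00491 and 0.0179 without Snhg11-ASO replicates 1, 2 and 3, where it was called. Of the others, named after their values were seen, Atf3, a stress-induced transcription factor, was at 1.73, 1.58 and 1.16 against 18.3, 2.58 and 2.61 CPM. Hmox1, which degrades heme, was at 8.26, 18.3 and 6.50 against 55.8, 20.6 and 20.5 CPM. In these 3, replicate 1 was far above, and replicates 2 and 3 were above, the highest control. Without Snhg11-ASO replicate 1, 2 of the 10 were higher at an unadjusted p under 0.05 by edgeR, against 4.41% of all genes. In that comparison the groups did not overlap for 7 of the 10, all higher, against 14.7% of all genes. The difference between this list and the 6 inducible chaperones was not tested.

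**Figure D5:**
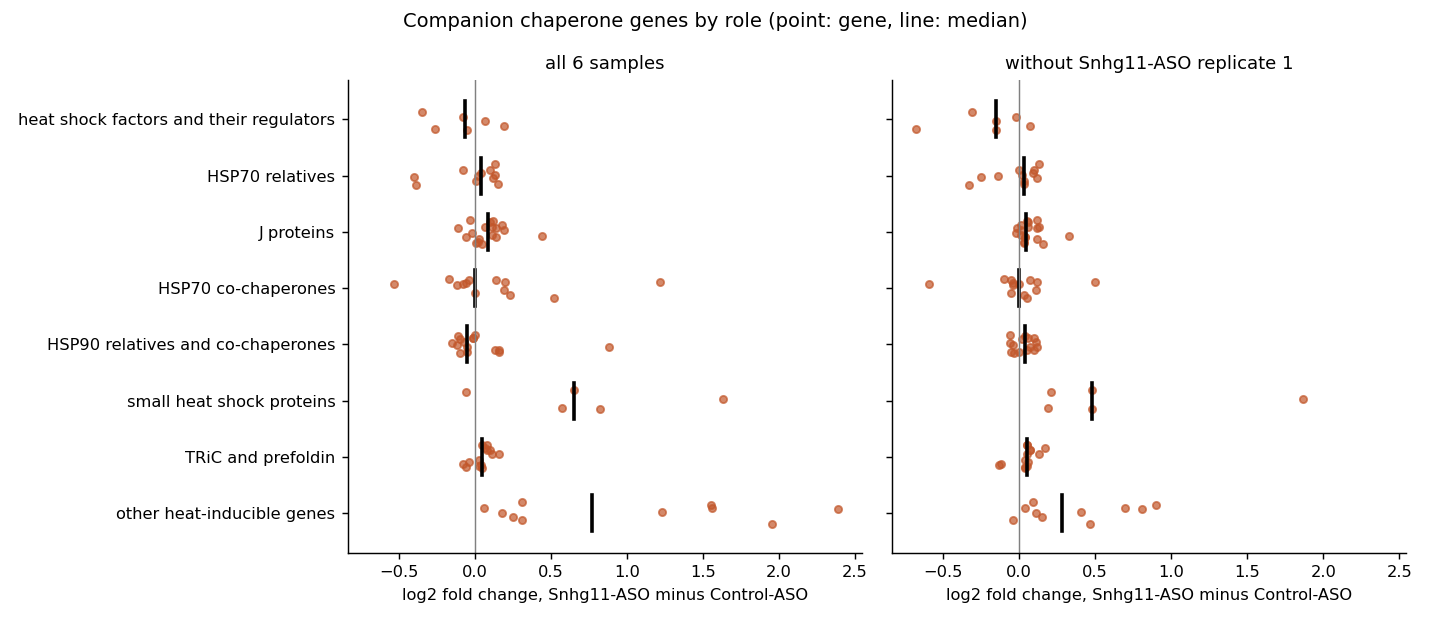
Log2 fold change, Snhg11-ASO minus Control-ASO, of the 92 further genes of the chaperone network tested, by role. Points are genes, black lines are medians of a role, and the right panel leaves out Snhg11-ASO replicate 1. The median of the other heat-inducible genes is 0.77 with all samples and 0.28 without that library.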

How the data were processed

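RNA-seq libraries were stranded and ribo-depleted. The authors aligned 50-base read pairs to mm10 with STAR 2.5.2a, and the deposited values are raw counts of read pairs per gene from STAR, not normalized and not pooled; the paper names Rsubread for counting. The annotation release used for counting is not given in the sources used here. Summary lines that name no gene (43.5% to 51.4% of pairs) were left out.

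Counts of the reverse strand, which the kit predicts, were used. GENCODE M21 matched 55141 of 55401 identifiers. Genes were kept with filterByExpr (minimum count 10), scaled by TMM (0.982 to 1.02) and compared with edgeR 4.0.16's quasi-likelihood test, all 6 samples in 1 fit, with Benjamini-Hochberg adjustment over all genes at 0.05 (R 4.3.3). SE were obtained as the log2 change over the root of the F statistic. DESeq2 1.42.0 was an alternative. The fit was tested on simulated counts. Permutation tests are exact and two-sided. That each replicate is a separate mouse comes from the paper.

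Same-numbered samples deviated together (correlations 0.297, 0.179 and 0.103), although replicate 2 reached 0.188 with another number. Since all were over 0.1, numbers were treated as pairs in alternatives with a replicate block; neither labels nor paper state a shared day or litter. Members and lists were chosen with earlier results of these data known. Named further genes of the chaperone network were those with the smallest p in each role. Hsf1, Bag3, Cryab, Atf3 and Hmox1 were added after their values were seen. The paper removed 1 Snhg11-ASO sample that it does not name, and all 3 were kept here.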

Additional observations from a re-analysis of the deposited data

How the results depend on the processing

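Over the 20 alternatives no member had an adjusted p under 0.05. Depth limits Hspa1a, Hspa1b and Hspb1 most, with 46 to 231 counts in every sample but 1 of Hspb1, and 3 mice per group limit all. Over all genes edgeR called 0, or 2 without Snhg11-ASO replicate 1, and DESeq2 called 258; the cause was not tested. Members with an unadjusted p under 0.05 numbered 0, against 1 with no filter on low counts, 0 to 2 when 1 library was left out, and 1 or 2 with DESeq2 without Snhg11-ASO replicate 2 or 3. Of the 92 further chaperone network genes, DESeq2 called 2, 6 and 2 without Snhg11-ASO replicates 1, 2 and 3. The log2 fold change of Hspa1a, 0.01, changed sign with upper-quartile scaling (-0.02), no filter (-0.01), GC offsets (-0.02), the replicate block (-0.14), the block with GC (-0.17) or gene span offsets (-0.13), and DESeq2 without Snhg11-ASO replicate 1 (-0.60). With 1 library left out it ran from -0.59 to 0.30 for Hspa1a, -0.32 to 0.73 for Hspa1b, -0.05 to 0.13 for Hsph1, -0.20 to 0.01 for Dnajb1 and -0.23 to 0.06 for Hspe1, reversing in each. DESeq2 also reversed Hspa1b (-0.33) and Hspe1 (0.06) without Snhg11-ASO replicate 1, and Dnajb1 (0.01) without replicate 2. The sum of Hspa1a and Hspa1b ran from -0.46 to 0.47 and that of Hspa8 and Gm15459 from -0.36 to -0.21. Hspb1 ran from 0.02 to 3.14 and Hspa8 from -0.52 to -0.14. The inducible minus the constitutive median, 0.12, ran from -0.15 to 0.38. The replicate block changed no call of a member. Summing a member with the gene that shares most of its sequence and leaving out samples from the sums were chosen after seeing the data.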

Other observations

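Counts on the strand opposite to the members were low. They were left out of all fits except the alternative that counted both strands. For Hspd1, which overlaps Hspe1 on opposite strands, they were 9, 13 and 9 in Control-ASO replicates 1 to 3 and 48, 11 and 17 in Snhg11-ASO replicates 1 to 3. For Hsp90ab1 they were 188 to 345 per sample, and for Hspa1a 0 to 5.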
